A study of Homo sapiens with 22 samples.

Results

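The promoters of WDR5 and of 9 genes whose products form the MLL/SET1 methyltransferase complexes with it were examined for N-MYC and WDR5 peaks in 2 neuroblastoma cell lines. The 10 genes are WDR5, RBBP5, ASH2L and DPY30, which encode the shared core subunits, and KMT2A, KMT2B, KMT2C, KMT2D, SETD1A and SETD1B, which encode the catalytic subunits. They were chosen by name, with earlier results of these data known, out of 20149 protein-coding genes in the annotation. A peak was assigned to a gene when it overlapped the 1 kb on either side of a transcription start site (TSS) of that gene, and 79 of the 94408 peaks in the 16 lists met this rule. ChIP-seq, in which DNA bound by a protein is recovered with an antibody and sequenced, was performed with serum against N-MYC and with an antibody against WDR5. Each antibody had 3 libraries of CHP-134 cells given DMSO for 4 h, 3 of CHP-134 cells given a compound for 4 h, and 2 of IMR-32 cells without treatment (replicates 1 and 2 for N-MYC, 1 and 3 for WDR5). Both lines are established human neuroblastoma lines with amplification of MYCN, the gene for N-MYC, and each stands for 1 tumor. The labels name the compound in more than 1 way, so its identity is not stated here, and they give the DMSO concentration as 0.0005% in one field and 0.005% in another. CHP-134 was sequenced with single reads and IMR-32 with paired end reads, so the line and the sequencing cannot be told apart. IgG libraries were not analysed here.

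MLL/SET1 complexes methylate lysine 4 of histone H3, a mark of active promoters and enhancers. Each complex holds 1 catalytic subunit, and WDR5, RBBP5, ASH2L and DPY30 form a module that binds it and raises its activity. WDR5 is also a subunit of other chromatin complexes, such as the NSL complex, and binds MYC proteins directly, which is known to help recruit MYC to a set of promoters. A WDR5 peak at one of these genes is therefore a case of the protein at a gene for its own partners.

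The libraries differed widely in how many peaks they held. N-MYC lists from DMSO cells held 9125 to 15286 peaks and those from IMR-32 cells 5242 and 8286, while the compound lists held 11249, 2964 and 12313. WDR5 lists held 1671 to 4891 peaks in DMSO cells and 1258 and 1693 in IMR-32 cells. The WDR5 lists from compound-treated cells held 5973, 15 and 401 peaks for replicates 1, 2 and 3. Compound replicate 2 thus stood apart for both antibodies and compound replicate 3 for WDR5, and results that rest on them are given with and without them. The files hold no read totals, so depth is unknown, and a gene with no peak in a list did not pass the peak caller's threshold there, which does not show that the protein was absent. Folds, the ratio of signal at a peak to its local background, were ranked within each list, and a percentile of 100 marks the highest fold of the list.

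The promoter sequences to which the results return are those of KMT2D, KMT2B and DPY30, from the GRCh37 genome. The KMT2D sequence is the minus strand of chr12:49454630-49454750 and surrounds the mean N-MYC summit, the point of highest signal in a peak, of DMSO cells. The KMT2B sequence is the plus strand of chr19:36208227-36208501, under the N-MYC peaks. The DPY30 sequence is the minus strand of chr2:32264961-32265139 and runs from just beyond the mean WDR5 summit of DMSO cells toward the TSS. All 3 lie upstream of the first exon. Capitals mark the E-box CACGTG in KMT2D and the variant CACGCG, read on either strand, in KMT2B and DPY30.
KMT2D: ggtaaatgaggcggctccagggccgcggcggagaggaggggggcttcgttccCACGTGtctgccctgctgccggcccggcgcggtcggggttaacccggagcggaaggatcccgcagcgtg
KMT2B: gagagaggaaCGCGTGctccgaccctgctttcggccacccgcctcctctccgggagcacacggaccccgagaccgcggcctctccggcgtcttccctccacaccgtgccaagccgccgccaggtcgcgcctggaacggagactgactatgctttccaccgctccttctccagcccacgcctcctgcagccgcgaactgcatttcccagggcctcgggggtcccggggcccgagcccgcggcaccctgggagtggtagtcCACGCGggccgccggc
DPY30: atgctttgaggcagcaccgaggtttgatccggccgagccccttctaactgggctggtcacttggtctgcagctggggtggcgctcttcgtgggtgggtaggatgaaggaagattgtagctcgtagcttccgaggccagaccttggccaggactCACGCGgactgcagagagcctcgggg

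DPY30 carried the strongest WDR5 peak of the 10 genes in DMSO and IMR-32 cells. DPY30 encodes the small subunit that binds ASH2L within the core module. In DMSO cells its WDR5 fold was 31.9, 21.7 and 35.3 in replicates 1, 2 and 3, which ranked 85th of 4891 peaks, 108th of 1758 and 78th of 1671. These folds stood at percentiles 98.3, 93.9 and 95.4 (mean 95.8 ± 2.23, SD, n = 3). In IMR-32 cells the folds were 101.5 and 119.9, at percentiles 95.1 and 95.3, and ranked 83rd of 1693 and 60th of 1258. All 5 untreated or DMSO libraries therefore placed DPY30 above percentile 93. Of the 778 genes with WDR5 peaks in all 3 DMSO libraries, 105 had a higher mean percentile, and of the 956 genes with peaks in both IMR-32 libraries, 83 did. N-MYC was present at DPY30 at a much lower rank, with percentiles of 34.3 and 42.4 in DMSO replicates 1 and 3 and no peak in replicate 2. In IMR-32 cells its N-MYC percentiles were 69.5 and 40.7, and the values of the lines overlapped.

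The WDR5 gene carried peaks of both proteins in CHP-134 and none in IMR-32. WDR5 encodes the WD-repeat scaffold that holds the catalytic subunit to the core module. Its N-MYC percentiles in DMSO cells were 46.1, 17.2 and 25.6 for replicates 1, 2 and 3. Its WDR5 percentiles were 65.5 in replicate 1 and 12.2 in replicate 2, with no peak in replicate 3. The N-MYC peaks were in all 3 libraries but below the middle of each list, and the WDR5 peak was above the middle in 1 list and near the bottom of another.

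RBBP5 and ASH2L, whose products bind each other and stimulate the catalytic subunit, carried weak N-MYC peaks in CHP-134 and none in IMR-32. RBBP5 had N-MYC percentiles of 34.9, 1.77 and 0.533 in DMSO replicates 1, 2 and 3, so that it was near the bottom of 2 of the lists. ASH2L had percentiles of 50.8 and 15.3 in DMSO replicates 1 and 2 and no peak in replicate 3. Each had a WDR5 peak in 1 DMSO library, replicate 1, which had the longest of the DMSO WDR5 lists, at percentiles of 72.2 for RBBP5 and 14.3 for ASH2L.

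KMT2D had the highest mean N-MYC percentile of the 10 genes in every group. KMT2D, also called MLL4, is known chiefly for mono-methylation at enhancers, together with KMT2C. The N-MYC percentiles of KMT2D were 95.3, 90.7 and 91.8 in DMSO replicates 1, 2 and 3. They were 97.5, 93.2 and 95.4 in compound replicates 1, 2 and 3, and 88.5 and 93.2 in the IMR-32 libraries. The gene was in all 8 N-MYC lists, and the values of the 3 groups overlapped. WDR5 at KMT2D was listed in DMSO replicate 1, at percentile 46.4, and in compound replicate 3, at percentile 6.11, and in no other library. KMT2C had N-MYC percentiles of 79.4 and 80.0 in DMSO replicates 1 and 3, of 56.0 and 44.3 in compound replicates 1 and 3, and no peak in replicate 2 of either treatment, in IMR-32 cells or in any WDR5 list.

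KMT2A was the other gene with N-MYC in all 8 lists. KMT2A, or MLL1, and its closest relative KMT2B are known for methylation at promoters of developmental genes. The N-MYC percentiles of KMT2A were 86.7, 59.2 and 91.9 in DMSO replicates 1, 2 and 3, and 87.3 and 70.8 in IMR-32 cells. The values of both lines ran over the same range. Those of KMT2B were 70.3, 57.2 and 70.6 in DMSO cells and 29.6 in 1 of the IMR-32 libraries, replicate 1. WDR5 peaks at KMT2A were listed in DMSO replicate 3 at percentile 53.4 and in compound replicates 1 and 3 at 64.2 and 74.4. KMT2B had a WDR5 peak in compound replicate 1 alone, at percentile 38.9.

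SETD1A and SETD1B encode the subunits known for bulk tri-methylation at active promoters. SETD1A had N-MYC percentiles of 61.4 and 13.1 in DMSO replicates 1 and 3 and of 27.8 and 40.8 in the IMR-32 libraries. SETD1B had percentiles of 0.697 and 41.7 in DMSO replicates 1 and 3 and no peak in IMR-32 cells. Both were missing from DMSO replicate 2, which had the shortest DMSO N-MYC list. WDR5 at SETD1A was listed in replicate 1 of each treatment, at percentiles of 15.1 in DMSO and 44.2 in compound, and SETD1B was in no WDR5 list.

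**Figure D1:**
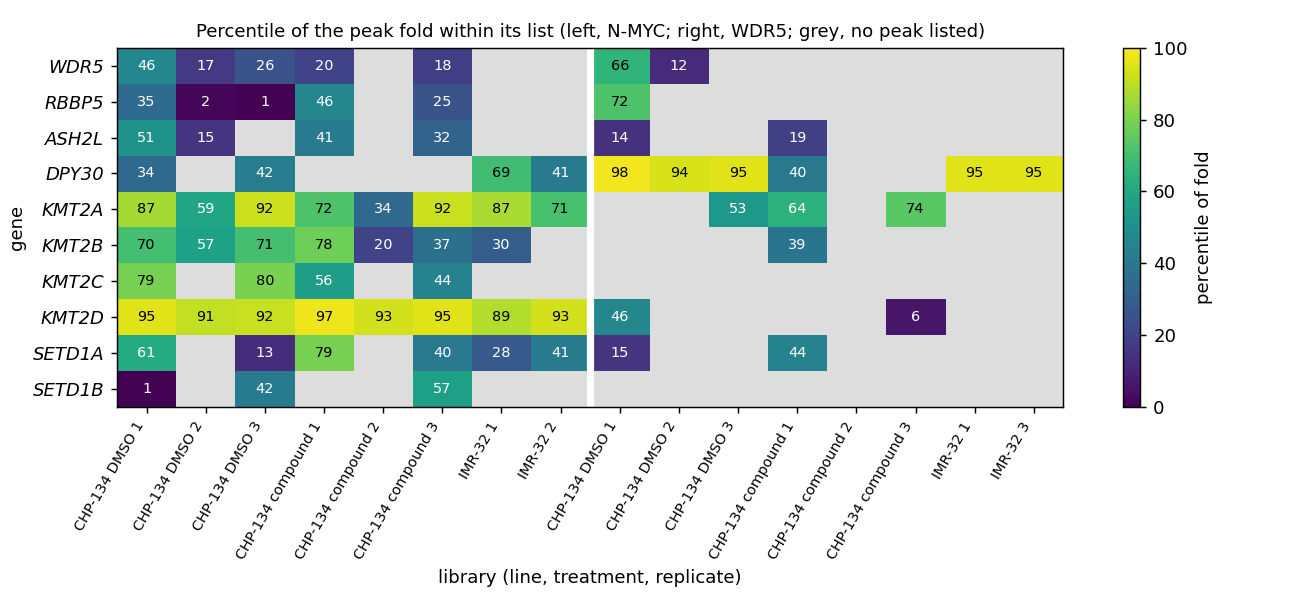
Percentile of each gene's highest peak fold in each of the 16 lists (columns, N-MYC left and WDR5 right; rows, genes; grey, no peak listed). KMT2D and KMT2A are in all 8 N-MYC lists, and DPY30 is above percentile 93 in the 5 WDR5 lists of DMSO and IMR-32 cells.

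With presence set as a peak in at least 2 libraries of a group, N-MYC was at 10 of the 10 promoters in DMSO cells, against 37.6% of all protein-coding genes. It was at 8 of 10 in compound-treated cells (29.8% of all genes) and at 4 of 10, DPY30, KMT2A, KMT2D and SETD1A, in IMR-32 cells (15.2%). The 2 IMR-32 peaks at SETD1A did not overlap, with summits at -574 and 147 bp from the TSS, so its presence there rests on different sites. In 5 of the 10, WDR5, RBBP5, KMT2A, KMT2B and KMT2D, N-MYC was in all 3 DMSO lists, while 70.6% of the 7572 genes present in DMSO cells were in all 3. The median over the 10 genes of the mean N-MYC percentile in DMSO cells was 37.8, below the median of 55.6 over all genes present. In order of that mean, KMT2D (92.6 ± 2.40, n = 3) came first, then KMT2C (79.7 ± 0.425, n = 2), KMT2A (79.2 ± 17.6, n = 3) and KMT2B (66.0 ± 7.66, n = 3). KMT2D did not overlap KMT2C, but KMT2A did overlap KMT2D and in DMSO replicate 3 ranked above it, at 91.87 against 91.77. The KMT2A peak of that replicate was 1538 bp wide with its summit at -1024 bp, against -276 and -225 bp for the highest peaks of replicates 1 and 2. DPY30 (38.3 ± 5.67, n = 2) followed with no overlap with KMT2B, whereas SETD1A, the next, reached 61.4 in 1 library and overlapped KMT2B. From DPY30 down through SETD1A, ASH2L, WDR5, SETD1B and RBBP5, each gene overlapped the next.

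WDR5 was present at fewer of the promoters. It was at 2 of 10 in DMSO cells, WDR5 and DPY30 (8.24% of all genes), at 1 of 10 in compound-treated cells, KMT2A (1.29%), and at 1 of 10 in IMR-32 cells, DPY30 (4.74%). In DMSO replicate 1 alone, which listed 18.5% of all genes, 6 of the 10 had a WDR5 peak. Both proteins were present at WDR5 and DPY30 in DMSO cells (7.5% of all genes), at KMT2A in compound-treated cells (1.17%) and at DPY30 in IMR-32 cells (2.55%). The compound counts for WDR5 and for both proteins rest on WDR5 replicates 1 and 3. Each was 0 when replicate 1 or replicate 3 was left out and 1 without replicate 2. DPY30 was the sole gene of the 10 with both proteins in both lines.

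The compound comparison asks how 4 h of treatment was followed by N-MYC and WDR5 peaks at these genes. DPY30 was the 1 gene of the 10 present in DMSO cells that had no N-MYC peak in any compound library. Over all genes, 6.64% of the 7572 present in DMSO cells were in 0 compound lists. Of the 10, 8 were in at least 2 compound lists, against 75.9% of the 7572. SETD1B was in compound replicate 3 alone, at percentile 56.6. Compound replicate 2 listed 3 of the 10 genes, KMT2A, KMT2B and KMT2D, and the count of 8 was the same without that library.

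KMT2D, KMT2B and KMT2A had N-MYC peaks in all 6 CHP-134 libraries, and none of the 3 reached the threshold in a test that, with 3 libraries against 3, cannot give a p below 0.1. KMT2D had a mean percentile of 95.4 ± 2.12 with compound and 92.6 ± 2.40 with DMSO, a difference of 2.76 (exact permutation test, two-sided, p = 0.2, n = 3 each). It was higher with compound in each of the 3 same-numbered pairs, by 2.17, 2.51 and 3.61 (exact paired permutation p = 0.25, the smallest that 3 pairs can give). Ranked among the 2101 genes listed in all 6 libraries, the difference at KMT2D was 17.6, and among the 2964 strongest peaks of each list it was 17.1, both with an exact permutation p of 0.1. Both rankings cover a smaller set than most whole lists, so these differences are not on the scale of 2.76. KMT2B had percentiles of 77.8, 20.3 and 36.9 in compound replicates 1, 2 and 3, and its mean was lower by 21.0 (difference -21.0, exact permutation p = 0.4). KMT2A had percentiles of 72.3, 34.1 and 92.1 in the same libraries, with a difference of -13.1 (exact permutation p = 0.7). For all 3 genes the treatments overlapped when whole lists were ranked. Without compound replicate 2 the difference was 2.93 at KMT2A, -8.66 at KMT2B and 3.83 at KMT2D. For the 5 genes that replicate 2 lacked but that were in the other compound lists, replicates 1 and 3 gave percentiles of 20.3 and 18.5 for WDR5, 46.4 and 25.5 for RBBP5, 40.7 and 31.9 for ASH2L, 56.0 and 44.3 for KMT2C, and 79.3 and 40.0 for SETD1A. Those of KMT2C lay below both DMSO values, 79.4 and 80.0, with no overlap and no test, and those of RBBP5, ASH2L, WDR5 and SETD1A lay within or across the DMSO range. By same-numbered pairs 1 and 3, compound minus DMSO was 11.5 and 24.9 at RBBP5 and 18.0 and 26.9 at SETD1A. It was -25.8 and -7.13 at WDR5 and -23.5 and -35.7 at KMT2C, and ASH2L had 1 pair, at -10.1. In pairs 1, 2 and 3 it was 7.52, -36.9 and -33.7 at KMT2B and -14.4, -25.1 and 0.211 at KMT2A (exact paired permutation p = 0.5 for each). Genes with fewer than 3 pairs were not tested.

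**Figure D2:**
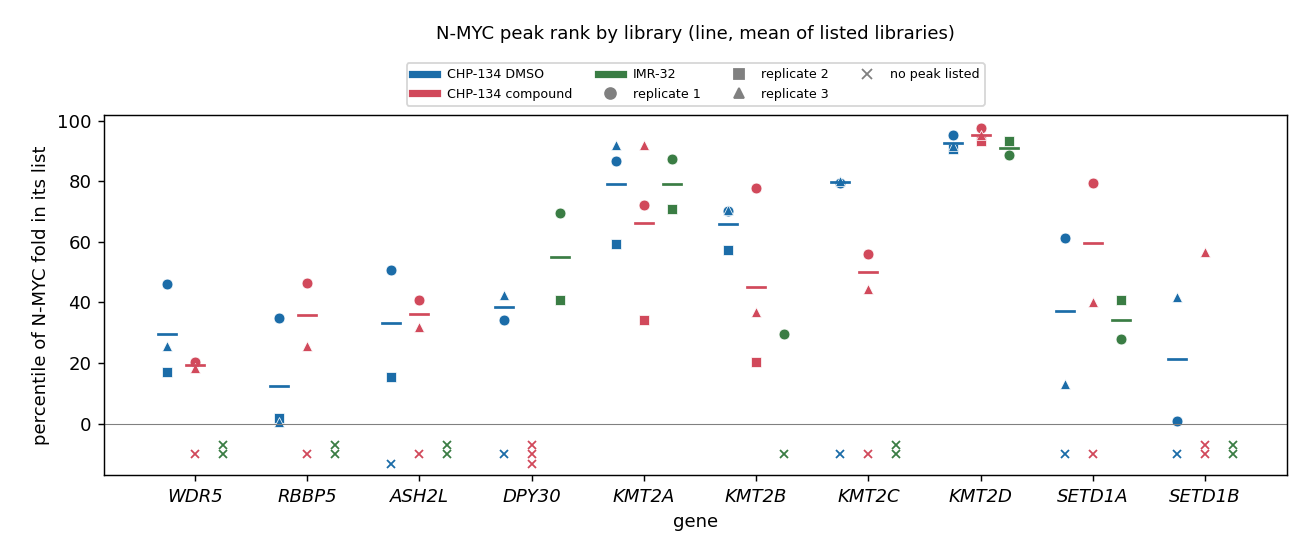
N-MYC percentile of each gene (x axis) in each library; y axis, percentile of fold within the list; colors give the group, symbols the replicate, horizontal lines the mean of listed libraries and crosses below 0 a library with no peak. KMT2D stays above percentile 88 in all 8 libraries, and DPY30 has 3 crosses for the compound.

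In a limma fit over the 2101 genes with an N-MYC peak in all 6 CHP-134 libraries, on log2 fold centred within each list, 0 genes passed an adjusted p of 0.05 (0% called), and 12 had an unadjusted p under 0.05. Of the 10 genes, 3 could enter the fit. The log2 ratio of compound to DMSO was 0.36 (SE 0.23) at KMT2D, 0.04 (SE 0.27) at KMT2A and -0.0026 (SE 0.25) at KMT2B, each with a limma adjusted p of 0.999. This fit does not take up the deviation that same-numbered libraries shared, so its 0 calls do not show that no gene changed. With the replicate number as a block, 142 genes had an unadjusted limma p under 0.05, against 12 without it. Of these, 2 genes were called, both lower with compound and neither among the 10. KMT2D had an unadjusted p of 0.0341 and an adjusted p of 0.718 in limma with the block. Without compound replicate 2, limma called 0 of 4677 genes, and 59 had an unadjusted p under 0.05. In that fit 5 of the 10 genes could enter, with log2 ratios of 0.54 (SE 0.30) at RBBP5, -0.10 (SE 0.26) at WDR5, 0.31 (SE 0.27) at KMT2D, 0.09 (SE 0.30) at KMT2A and -0.07 (SE 0.29) at KMT2B.

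The WDR5 peak at DPY30 was high in the DMSO lists and low or missing in the compound lists. In compound replicate 1, the 1 long list, the DPY30 peak had a fold of 3.90, which ranked 3579th of 5973 at percentile 40.1. Its deposited −log10 q-value was 6.06, against 284.97, 165.5 and 255.4 in DMSO replicates 1, 2 and 3. Ranked by q-value, the same peak stood at percentile 83.8 of its list, against 98.3, 95.0 and 95.3 in DMSO cells. The peak was below every DMSO list by either ranking, by a wide margin by fold and a smaller one by q-value. Compound replicates 2 and 3, with 15 and 401 peaks, listed no DPY30 peak. Of the 155 genes at or above percentile 90 in every DMSO WDR5 list, a set to which DPY30 belongs, 114 (73.5%) were in compound replicate 1, 8 in replicate 2 and 35 in replicate 3. The median percentile of those 114 in replicate 1 was 65.9, with quartiles of 38.05 and 91.23, so DPY30 was near the lower quartile. The set was drawn from these same DMSO lists, and these values are a description. Of the 147 genes of that set with N-MYC present in DMSO cells, 36 (24.5%), DPY30 among them, were in no compound N-MYC list.

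At the other genes, WDR5 peaks were listed in few libraries of either treatment. The WDR5 promoter had no WDR5 peak in any compound library, and neither had RBBP5. Of the 2 genes with WDR5 present in DMSO cells, 1 was in compound replicate 1, against 53.4% of the 1660 such genes. At KMT2A, WDR5 was in 1 of 3 DMSO and 2 of 3 compound lists. Over genes, the 6 WDR5 lists of CHP-134 shared 17 genes, none of them among the 10, so that no fit was made. Without compound replicate 2, limma called 33 of 141 shared genes, 2 higher and 31 lower with compound, and again none of the 10 could enter.

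The second comparison sets DMSO-treated CHP-134 against untreated IMR-32. Of the 10 genes present for N-MYC in CHP-134, 4 were in both IMR-32 lists, against 38.6% of the 7572 such genes, and KMT2B was in 1. WDR5, RBBP5, ASH2L, KMT2C and SETD1B were in neither. N-MYC percentiles of the 2 genes in all 5 lists overlapped between lines, with differences of 0.182 at KMT2A and 1.72 at KMT2D for CHP-134 minus IMR-32 (exact permutation, two-sided, p = 1 and p = 0.6, smallest possible 0.1). In limma over 2656 genes, 10 were called (0.377%), 6 higher (0.226%) and 4 lower (0.151%) in CHP-134, and 0 of the 2 was among them. The log2 ratio of CHP-134 to IMR-32 was -0.17 (SE 0.30, limma adjusted p = 0.878) at KMT2A and -0.11 (SE 0.29, adjusted p = 0.917) at KMT2D.

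At DPY30, WDR5 ranks were alike in the lines, with means of 95.8 ± 2.23 (n = 3) in CHP-134 and 95.2 ± 0.101 (n = 2) in IMR-32, a difference of 0.641 (exact permutation p = 0.8). On the scale of fold, DPY30 was lower in CHP-134 with a log2 ratio of -0.99 (SE 0.33, limma adjusted p = 0.0142). This fit called 174 of 510 genes (34.1%), of which 70 were higher (13.7%) and 104 lower (20.4%) in CHP-134. The split was 15 higher and 12 lower after quantile normalization, under which DPY30 was not called (log2 ratio -0.44, limma adjusted p = 0.464). It was also not called without DMSO replicate 2 (log2 ratio -0.82, limma adjusted p = 0.061) or without IMR-32 replicate 3 (log2 ratio -0.93, limma adjusted p = 0.0944). The last fit leaves 1 IMR-32 library, which is assumed to vary as the CHP-134 libraries do.

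N-MYC and WDR5 summits at DPY30 lay apart. With positions counted from the TSS and negative upstream, the WDR5 summit was at -205 ± 16.1 bp in DMSO cells (n = 3), -193 bp in compound replicate 1 and -202 ± 19.8 bp in IMR-32 cells (n = 2). These 6 libraries held the WDR5 summit within a span of -222 to -188 bp, inside the DPY30 sequence printed above. The N-MYC summit was at -25 and 123 bp in DMSO replicates 1 and 3 and at -137 and -112 bp in IMR-32 cells. Between same-numbered libraries its distance from the WDR5 summit was 165 and 326 bp in DMSO replicates 1 and 3 and 79 bp in IMR-32 replicate 1. From the mean N-MYC summit of the group, the WDR5 summits of single libraries were 239 to 271 bp away in DMSO cells, where that mean rests on the summits at -25 and 123 bp, and 91.5 and 63.5 bp away in IMR-32 cells. The WDR5 summit was the more upstream in every case. The DPY30 peaks also lay within 1 kb of the start of a long noncoding RNA, ENSG00000288937, on the opposite strand 34 bp away, so that a peak there belongs to both genes.

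**Figure D3:**
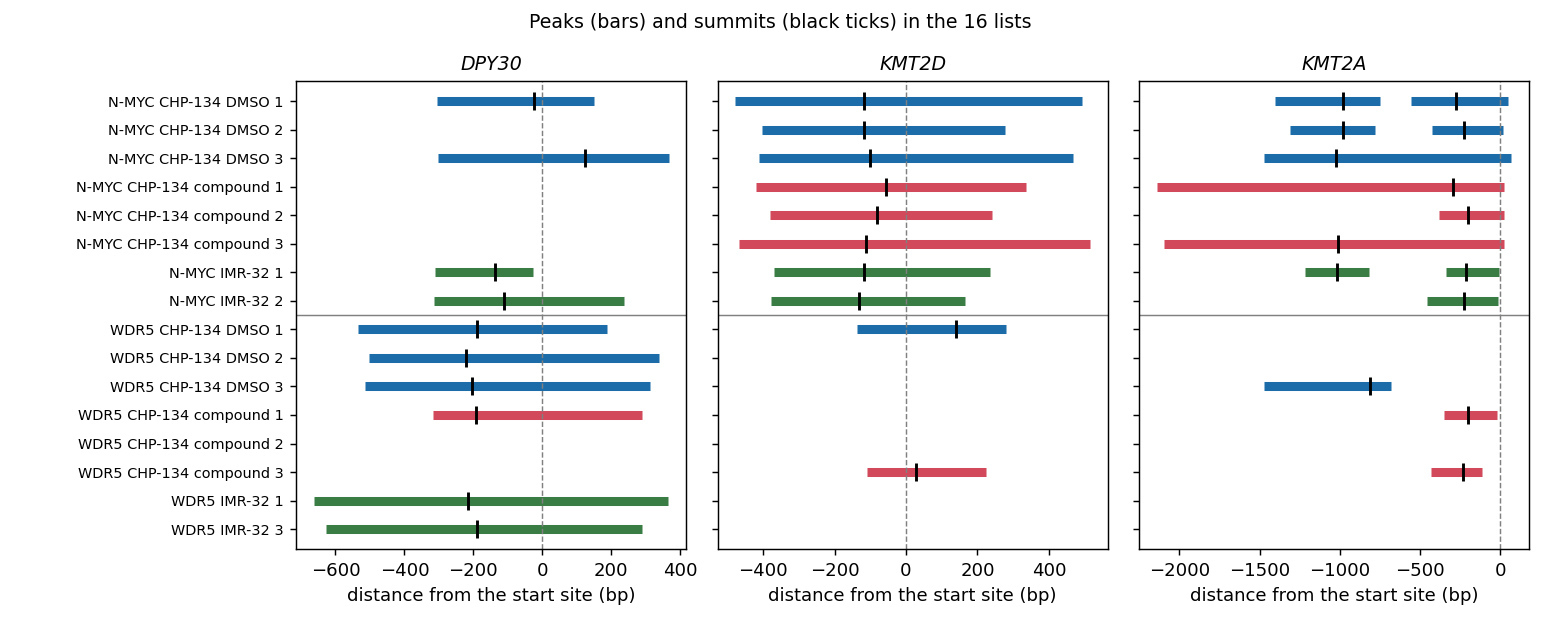
Peaks (bars) and summits (black ticks) at DPY30, KMT2D and KMT2A in each of the 16 lists (rows); x axis, distance from the TSS in bp, negative upstream. WDR5 summits at DPY30 fall between -222 and -188 bp in 6 lists, N-MYC summits at KMT2D between -131 and -56 bp in 8, and KMT2A shows an upstream and a near position.

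Over all N-MYC lists together, KMT2D had the narrowest range of summit positions among these genes. Its summit lay at -113 ± 10.97 bp in DMSO cells, -83.7 ± 28.5 bp in compound-treated cells and -125 ± 9.19 bp in IMR-32 cells, and the extremes of all 8 libraries were -131 and -56 bp. Within a single group other genes could be narrower, such as SETD1A in DMSO cells, with summits at 28 and 30 bp. KMT2A had N-MYC at more than 1 position. DMSO replicates 1 and 2 and IMR-32 replicate 1 listed separate peaks, with summits at -982 and -276 bp, at -983 and -225 bp, and at -1015 and -215 bp. In DMSO replicate 3 and compound replicates 1 and 3 a single peak of 1538, 2167 and 2123 bp covered both positions, with its summit at -1024, -295 and -1009 bp. The highest summit of KMT2A thus lay at the upstream position in DMSO replicate 3 and compound replicate 3 and near the TSS in the other 6 lists. The KMT2A percentiles given above are therefore not all of 1 site. At KMT2A the WDR5 summit was at -812 bp in DMSO replicate 3 and at -202 and -234 bp in the compound lists.

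The N-MYC summits of the remaining genes lay upstream, except at SETD1A. N-MYC summits in DMSO cells averaged -320 ± 18.3 bp at WDR5, -119 ± 24.6 bp at RBBP5, -124 ± 45.3 bp at ASH2L, -497 ± 32.7 bp at KMT2B, -850 ± 17.7 bp at KMT2C and -562 ± 55.2 bp at SETD1B. With compound they lay farther from the TSS than in any DMSO library at KMT2B (-680 ± 81.5 bp, n = 3), RBBP5 (-268 ± 18.4 bp, n = 2), WDR5 (-425 and -352 bp) and SETD1B (-770 bp). The compound means of ASH2L (-80.0 ± 43.8 bp, n = 2) and KMT2D were nearer to the TSS than the DMSO means, and that of KMT2C was -886 ± 65.1 bp (n = 2). These positions are counted from the canonical TSS of each gene, and KMT2C has 7 annotated TSSs. From the nearest of them, its N-MYC summits lay at -221 and -196 bp in DMSO replicates 1 and 3. In compound replicates 1 and 3 they lay at -291 and -199 bp. No test of these positions was made. Some WDR5 summits lay downstream of the TSS, at 59 bp at ASH2L in DMSO replicate 1 and at 140 and 29 bp at KMT2D in DMSO replicate 1 and compound replicate 3. SETD1A N-MYC summits were at 28 and 30 bp in DMSO cells, -20 and 150 bp with compound, and -574 and 147 bp in IMR-32 cells. The last 2 lay at -114 and -70 bp from the nearest annotated TSS of SETD1A. At WDR5, the WDR5 summits of DMSO replicates 1 and 2 were 41.3 and 70.3 bp from the mean N-MYC summit. WDR5, SETD1A and SETD1B also shared their peaks with long noncoding RNAs on the opposite strand, WDR5-DT, ENSG00000275263 and LINC01089, whose starts were 310, 555 and 103 bp from those of the coding genes, and KMT2A with ENSG00000255384, 1286 bp away.

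**Figure D4:**
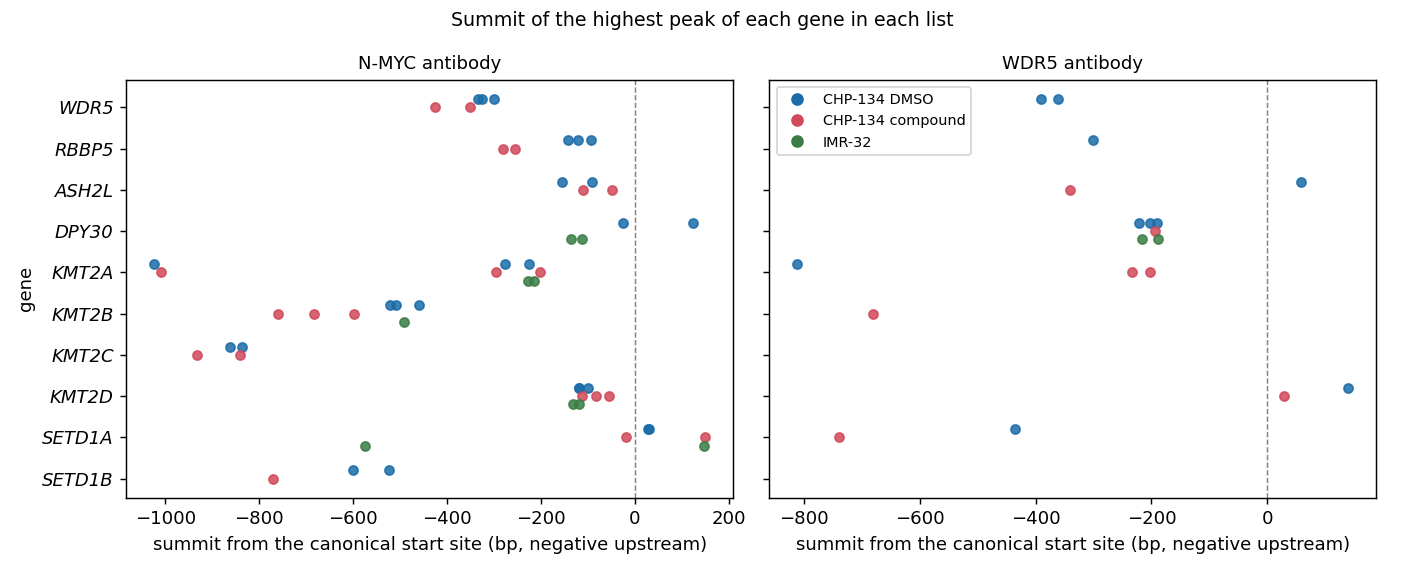
Summit of the highest peak of each gene in each list (points, colored by group), for N-MYC (left) and WDR5 (right); x axis, distance from the canonical TSS in bp, negative upstream. KMT2D and the WDR5 summits of DPY30 have narrow ranges, whereas KMT2A N-MYC summits fall between -1024 and -1009 bp or between -295 and -202 bp.

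KMT2D was the 1 gene of the 10 with an E-box, the CACGTG to which MYC and its partner MAX bind, within 100 bp of an N-MYC summit. Over all genes with N-MYC present this held for 26.5% of 7572 in DMSO cells and 36.2% of 3066 in IMR-32 cells, against 1 of 10 and 1 of 4 here. The motif, at chr12:49454693-49454698, had the summit at most 100 bp away in all 8 lists and lay directly under it in at least 1 (0 bp). CACGTG reads the same on both strands, and it lies at -118 bp, in capitals in the KMT2D sequence above. The variant CACGCG was near the N-MYC summit at KMT2B in DMSO cells, as for 26.8% of all genes present. It was at 2 places at KMT2B, each within 100 bp of the summit in 3 lists, but not in the same lists. For chr19:36208486-36208491 the lists were DMSO replicates 1 and 3 and IMR-32 replicate 1. For chr19:36208237-36208242 they were the 3 compound lists. At DPY30 it lay at chr2:32264981-32264986, at -109 bp, with the N-MYC summit at most 100 bp away in 3 lists, DMSO replicate 1 and both IMR-32 replicates. For scale, CACGTG occurs in 8.77% and CACGCG in 15.3% of 19881 promoters, taken from 250 bp before to 50 bp after the TSS. These are matches of letters, and none of the other genes with N-MYC present had CACGTG within 250 bp of its summit in any group.

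KMT2A was listed in 11 of the 16 lists, more than any other of the 10 genes, followed by DPY30 and KMT2D with 10 each, KMT2B and SETD1A with 8, WDR5 with 7, RBBP5 and ASH2L with 6, KMT2C with 4 and SETD1B with 3. The genes whose percentiles were nearest to those of KMT2A over the 16 lists, an absent peak counted as 0, were GCLC, SINHCAF and DOLK. Their root mean square differences were 13.9, 17.6 and 19.7 percentile points, against a median of 60.5 over all genes and 34.9 for the nearest of the other 9 genes.

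Genes for related proteins also carried N-MYC peaks. Of 11 accessory subunits of the complexes, 8 had N-MYC present in DMSO cells, 7 with compound and 4 in IMR-32 cells. WDR5 was present at 1 of them in DMSO cells and at a different 1 in IMR-32 cells. BOD1, a subunit of SET1 complexes, was the 1 accessory gene with both proteins, at N-MYC percentiles of 89.5, 95.0 and 93.8 and WDR5 percentiles of 68.1 and 67.4 in DMSO cells. The NSL complex, an acetyltransferase complex that holds WDR5, had N-MYC at 6 of its 7 genes in DMSO cells, 6 with compound and 4 in IMR-32 cells. WDR5 was present at 4 of these 7 in DMSO cells, namely KANSL1, KANSL2, PHF20 and OGT, at 0 with compound and at 2 in IMR-32 cells. In DMSO cells PHF20 had the highest mean of the 4, with WDR5 percentiles of 95.6, 79.1 and 72.4. In IMR-32 cells OGT was higher, at 82.5 and 61.2 against 54.8 and 57.0 for PHF20, and OGT had both proteins in both lines. The counts are descriptions of short lists and were not tested against each other.

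Among the histone demethylases that remove the same mark, 4 of 5 genes had N-MYC in DMSO cells, 3 with compound and 0 in IMR-32 cells, and 1 had WDR5 in each line. Of 19 other histone lysine methyltransferases, 14 had N-MYC in DMSO cells, 10 with compound and 6 in IMR-32 cells. WDR5 was at 4 of the 19 in DMSO cells, NSD2, EZH1, EZH2 and SETD7, with N-MYC present at each, at 0 with compound and at 1, SETD7, in IMR-32 cells. EZH2, the catalytic subunit of Polycomb repressive complex 2, had N-MYC percentiles of 95.4, 83.7 and 98.9 and WDR5 percentiles of 26.3, 22.5 and 46.6 in DMSO cells. SETD7 had both proteins in both lines, as DPY30 and OGT did.

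**Figure D5:**
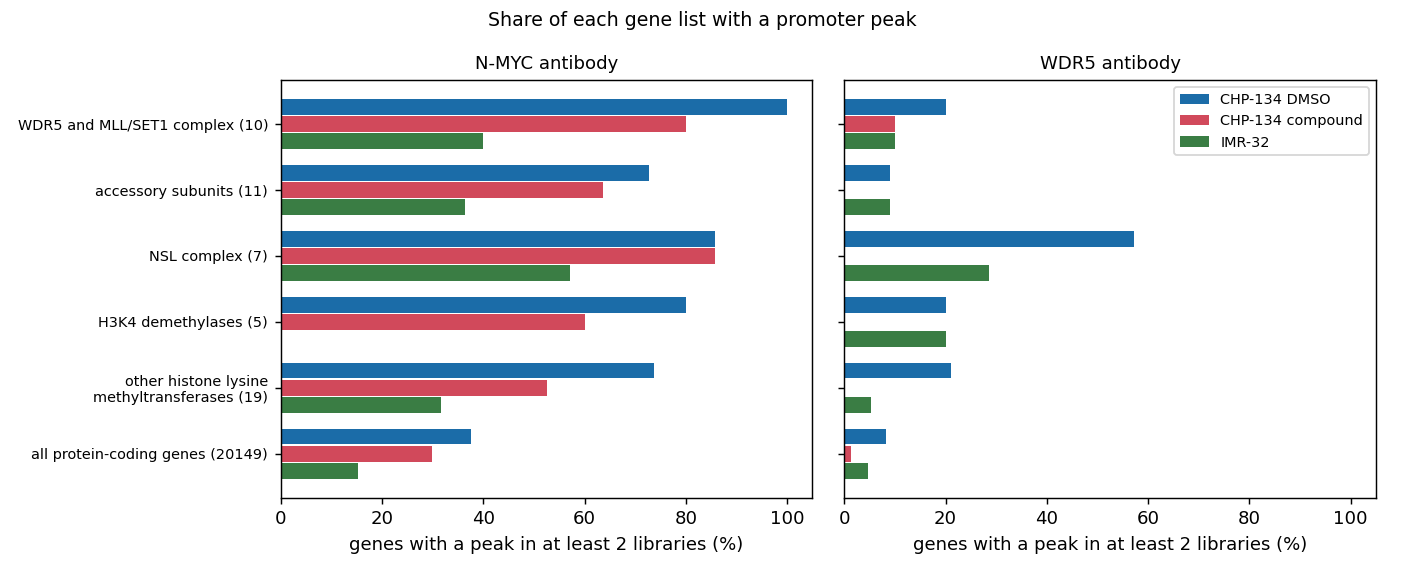
Share of the genes of each list (rows, number of genes in parentheses) with a peak in at least 2 libraries, for N-MYC (left) and WDR5 (right), in percent; bars give CHP-134 with DMSO, CHP-134 with compound and IMR-32. The 10 genes reach 100%, 80% and 40% for N-MYC, all genes 37.6%, 29.8% and 15.2%, and for WDR5 the 10 genes reach 20%, 10% and 10%.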

How the data were processed

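N-MYC and WDR5 ChIP-seq peaks of 16 libraries were used. The authors used Cutadapt for trimming, Bowtie2 for alignment to hg19 and, library by library, MACS2 for peaks at a q-value of 0.05 (control library and versions not given in the sources used here). 3 ChIPs were pooled into each library, and replicates are separate libraries, so that p-values measure the spread between libraries. The deposited fold is a linear ratio of signal to local background, p-values and q-values are given by the authors as −log10, and the deposited score was not used. Read counts were not used here, so depth and its intervals are unknown, and folds, which depend on the background and depth of a library, were ranked, or centred on the median of log2 fold for limma, within each list. A low number of peaks can leave a gene out of a list.

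The genes and gene lists were chosen with earlier results of these data known. TSSs came from basic transcripts of GENCODE 44 on GRCh37, all 52 listed genes were found, and the highest fold of a gene in a list was used. All 10 genes are named. Genes of other lists are named where both proteins were present in a line, as are the 3 genes nearest in pattern to the most often listed gene and neighbours that share a peak. Percentiles were compared with exact permutation tests, and log2 folds with limma 3.58.1 (R 4.3.3; Python 3.11.15) with Benjamini-Hochberg adjustment over genes listed in every library of the comparison. The limma step was tested on simulated data for the N-MYC compound comparison (2101 genes, 200 changed), where it called 47% of the changed genes at a log2 change of 1 (4 false calls) and 96% at a change of 2 (13 false calls). For that comparison, libraries with the same replicate number deviated together (correlations of 0.661 to 0.696 against -0.364 to -0.299 for different numbers), so the replicate block was used as an alternative. Deviations were taken from the group mean and cancel within a group, so the negative values largely follow from the positive ones. The simulated libraries had no such shared deviation, so the rates found in the simulation may not hold for the real ones. Other alternatives changed the window, the number of libraries required, the q-value minimum, the ranking, the scaling and the libraries included.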

Additional observations from a re-analysis of the deposited data

How the results depend on the processing

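Depth is unknown and the lists differ in length, so counts of genes present move with the rule used. In DMSO cells, N-MYC was at 5 of the 10 genes when a peak in every library was required and at 6 with a −log10 q-value of at least 5, and WDR5 was at 7 in any library, 1 in every library and 1 at that q-value. Both proteins were at 7, 0 and 1 in the same order. Of all 20149 genes, 5348 had an N-MYC peak in every DMSO library and 778 a WDR5 peak in every DMSO library. Shares of all genes under the other rules of presence were not computed, so these counts do not show whether the 10 genes moved more than others. With compound, N-MYC was at 3 in every library, WDR5 at 6 in any and 0 in every library, and both at 5 and 0. When 1 library was left out at a time, the counts in DMSO cells ran from 5 to 9 for N-MYC, from 1 to 2 for WDR5 and from 1 to 2 for both. With compound they ran from 3 to 8, from 0 to 1 and from 0 to 1. The lowest N-MYC counts came without replicate 1 (5 with DMSO, 3 with compound) and without compound replicate 3 (3). In IMR-32 cells they ran from 4 to 5 for N-MYC and stayed at 1 for WDR5 and for both. The E-box count was 1 under every alternative.

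Small differences in percentile changed sign. Ranked among genes listed in every library, compound minus DMSO was 1.54 at KMT2A and 1.82 at KMT2B, while that at KMT2D kept its sign, at 17.6. This ranking covers a smaller set than most whole lists, so its percentile points are not on the same scale as theirs. In the same ranking CHP-134 minus IMR-32 was -11.1 at KMT2A, -4.92 at KMT2D and -3.89 at DPY30 (WDR5). With lists cut to equal numbers of the strongest peaks, the last 3 were -18.4, -3.91 and -1.50, and compound minus DMSO at KMT2D was 17.1. With 1 library left out they ran from -8.11 to 10.2, from -0.634 to 4.08 and from -0.575 to 1.62, and the compound differences from -26.1 to 2.93 at KMT2A and from -37.4 to -8.66 at KMT2B. Fitted log2 ratios of compound to DMSO ran from -0.14 to 0.21 at KMT2A and from -0.17 to 0.20 at KMT2B, which was 0.0032 among genes with a mean percentile of at least 50, and those of the lines from -0.33 to 0.0037 at KMT2A and from -0.28 to 0.048 at KMT2D. The cause of the changes of sign was not tested.

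The 1 call among the 10 genes, DPY30 lower for WDR5 in CHP-134, was lost (0 called) with quantile normalization, with −log10 q in place of fold (limma adjusted p = 0.106), without DMSO replicate 2 and without IMR-32 replicate 3, so that the count ran from 0 to 1 with libraries left out, and the adjusted p over all alternatives from 0.00815 to 0.464. Same-numbered libraries of the lines did not deviate together (correlations of 0.0149 to 0.063 for N-MYC and -0.126 to 0.000099 for WDR5). With 2 IMR-32 libraries for each antibody, their deviations mirror each other, so this check is weak. With the replicate block, 0 of the 10 genes were called for WDR5 (DPY30 limma adjusted p = 0.119), all calls moved from 174 to 79 for WDR5 and from 10 to 36 for N-MYC, and the KMT2A percentile difference between lines was -6.14. For the compound the block moved the calls from 0 to 2. Between lines, −log10 q gave 111 N-MYC calls, quantile normalization 27 WDR5 calls, and leaving out 1 library 0 to 33 N-MYC and 68 to 171 WDR5 calls. WDR5 with compound could not be fitted except without replicate 2.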
